A study of Mus musculus with 6 samples.

Results

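The 10 genes described here mark Langerhans cells and the subsets of conventional dendritic cells in mouse skin: Cd207, Epcam, Cd209a, Xcr1, Clec9a, Flt3, Zbtb46, Irf4, Itgax and Cadm1. They were taken by symbol from a deposited table of read counts for 55487 genes, and all 10 were present and passed the low-count filter that left 17988 genes for testing. Polyadenylated RNA of whole dorsal mouse skin was measured at day 2. The agent was diphencyprone (DPCP), which sensitizes skin and sets off contact allergy. All 6 skins received DPCP. In 3 of them it was combined with clodrosome, liposomes that carry clodronate into cells able to engulf them and so kill those cells, and in the other 3 with encapsome, the same kind of liposome with no clodronate inside. Liposome dose and route, mouse strain, sex and age are not given in the sources used here, and the libraries are not said to come from separate animals, so the p-values describe the spread between libraries only. Clodronate liposomes can act on any phagocyte, dendritic cells included.

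Dendritic cells take up antigen, move to lymph nodes and present it to T cells, and in contact hypersensitivity they carry the sensitizer from the skin. Langerhans cells live in the epidermis, arise from embryonic precursors, depend on IL-34 and TGF-beta and carry the lectin langerin. Conventional dendritic cells of the dermis renew from bone marrow under the growth factor FLT3L and fall into a type 1 subset, specialised in cross-presentation to CD8 T cells, and a type 2 subset, which primes mainly helper T cells. Monocytes that enter inflamed skin can take on features of the type 2 subset, and macrophages share several of its surface proteins.

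Cd209a and Itgax were the 2 members called lower with clodrosome, as described below, and the bases just before their start sites are shown here for that reason. Shared control of the 2 genes was not tested. The windows are 250 bases long, from RefSeq on GRCm38.p6, read 5′ to 3′ on the strand of the gene. The Cd209a window is chr8:3748985-3749234 (minus strand) and the Itgax window is chr7:128129300-128129549 (plus strand). Capitals mark the letters GGAA on either strand (TTCC when read on the other), the core shared by ETS family factors such as PU.1.
Cd209a: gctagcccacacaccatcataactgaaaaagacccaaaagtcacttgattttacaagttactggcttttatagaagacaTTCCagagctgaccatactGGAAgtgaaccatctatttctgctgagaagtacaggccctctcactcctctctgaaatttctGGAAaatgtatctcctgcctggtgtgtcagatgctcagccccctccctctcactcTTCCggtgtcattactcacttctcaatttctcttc
Itgax: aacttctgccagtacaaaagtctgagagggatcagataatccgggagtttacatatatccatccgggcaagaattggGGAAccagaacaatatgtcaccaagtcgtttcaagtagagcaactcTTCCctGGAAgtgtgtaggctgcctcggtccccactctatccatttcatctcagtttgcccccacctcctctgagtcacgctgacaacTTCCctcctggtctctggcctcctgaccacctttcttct
Each of these windows holds 4 such cores, letters so short that 93.4% of 32817 RefSeq windows hold at least 1. Windows were found for 9 of the 10 members, Cadm1 being the other. The longer PU.1 letters GAGGAAGT, found in 2.44% of all windows on either strand, and the ETS-IRF composite element (EICE) of PU.1 with IRF4 or IRF8, found in 2.30%, occurred in the window of 0 members. The AP-1-IRF composite element (AICE) is in 0.198% of all windows and in the window of 1 member, Zbtb46, where it lies 61 to 51 bases before a RefSeq start that is inside the gene as deposited. The guanine and cytosine content was 44.8% for Cd209a and 50.0% for Itgax, against a median of 52.4% over all windows.

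Letters A, B and C name the libraries of a group and do not pair them. Their totals ran from 26649396 to 35566351 counts except for clodrosome A with 116965654, and the lowest count of any member in any library was 34, for Xcr1. The tissue label was checked on Krt14, a keratin of basal epidermis, at 15682 ± 888 CPM with clodrosome and 12440 ± 1358 CPM with encapsome (SD, n = 3 each). CPM are counts scaled for the depth of each library. The macrophage marker Adgre1, a check on the depletion, averaged 90.7 ± 25.7 CPM with clodrosome and 242 ± 28 CPM with encapsome (SD, n = 3 each). The share of counts in ribosomal RNA genes divided the libraries across the groups, from 0.334% to 0.481% in encapsome A and clodrosome A and C, and from 0.788% to 0.845% in the others, although the labels name no batch. Log2 differences within each of these sets, which have no test, are given below for all members. The low set holds 2 clodrosome libraries and 1 encapsome library, and the high set 1 and 2. Each difference therefore rests on 1 library on one side.

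Of the 10 markers, Cd209a and Itgax were lower in clodrosome skin at an edgeR adjusted p under 0.05, and 8 did not pass. That count of 2 stands against 13% of all tested genes that were called lower. No member was called higher (0 of 10, by edgeR, DESeq2 and limma-voom alike), against 9.41% of all tested genes, although 2 had an unadjusted edgeR p under 0.05 in that direction and 5 in the lower direction. Of all tested genes 17.1% were higher and 18.7% lower at that unadjusted threshold. The libraries of the groups did not overlap for 4 members that were lower and 3 that were higher with clodrosome. Over all tested genes 20.7% were lower and 19.5% higher without overlap, or 40.2% in either direction, beside 7 of the 10 members. The median log2 fold change over the members was -0.16, beside 0.01 over all tested genes. RNA of whole skin cannot tell fewer cells of a type from less of the RNA in each cell.

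**Figure D1:**
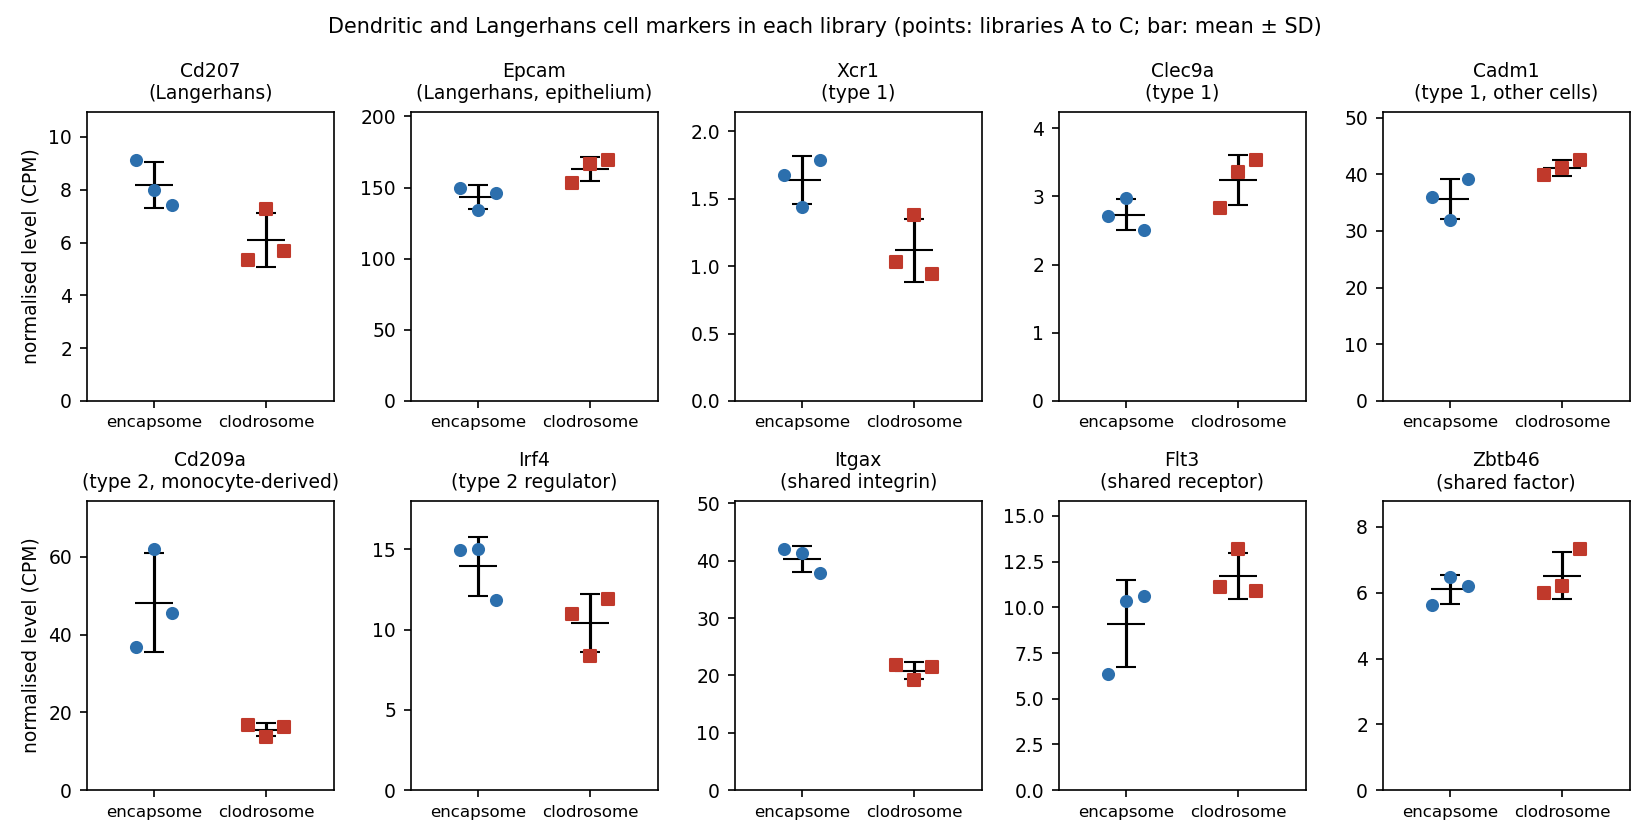
Normalised level (CPM, linear axis from 0) of each marker in the 3 encapsome libraries (blue circles) and the 3 clodrosome libraries (red squares), with the mean and SD. For Cd209a the clodrosome libraries reach 16.7 CPM at most and the encapsome libraries start at 36.9, and for Itgax these values are 21.8 and 37.8.

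The type 2 and monocyte-derived marker Cd209a (chromosome 8, 3743397 to 3748984, GRCm38) encodes a mouse relative of the lectin DC-SIGN, which binds mannose-rich sugars. Its level was 16.7, 13.6 and 16.1 CPM in clodrosome libraries A, B and C and 36.9, 62.0 and 45.6 CPM in encapsome A, B and C. All clodrosome libraries were low and close together, while the encapsome libraries were high and spread, with no overlap. The means were 15.5 ± 1.66 and 48.2 ± 12.7 CPM (SD, n = 3 each), a 3.10-fold fall with a log2 fold change of -1.63 ± 0.17 (SE; adjusted p by edgeR = 3.09e-04; 95% interval -2.03 to -1.24). Only 1.23% of tested genes had a log2 fold change this low or lower. Within the libraries of low ribosomal RNA share the log2 difference was -1.17, and within those of high share -1.97, each with 1 library on one side. Cd209a has close relatives in the genome, and reads that match several places were left out of the counts, so its level is uncertain to that extent.

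Irf4 (chromosome 13, 30749226 to 30766976) encodes a transcription factor that type 2 dendritic cells need for their migration, and which activated T cells, plasma cells and melanocytes also use. Its level was 11, 8.39 and 11.9 CPM in clodrosome A, B and C and 14.9, 15 and 11.8 CPM in encapsome A, B and C. Clodrosome C and encapsome C were level, so the groups overlapped. The log2 fold change was -0.42 ± 0.15 (SE; adjusted p by edgeR = 0.0830; 95% interval -0.76 to -0.07), which did not pass. It passed with the ribosomal RNA set as a term of the fit, at -0.53 (adjusted p by edgeR = 0.0243), and, when genes of low count were kept, at -0.40 (adjusted p by edgeR = 0.0322), over a range of adjusted p from 0.0243 to 0.306. Within the low ribosomal RNA set the difference was -0.39 and within the high set -0.67. Without clodrosome B the fold change was -0.29.

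Itgax (chromosome 7, 128129547 to 128150657) encodes CD11c, the integrin alpha chain used to identify dendritic cells, which many macrophages and monocytes also carry. Its level was 21.8, 19.2 and 21.5 CPM in clodrosome A, B and C and 42.0, 41.3 and 37.8 CPM in encapsome A, B and C. Each group was tight and the gap between them was wide. The means of 20.8 ± 1.42 and 40.4 ± 2.28 CPM (SD, n = 3 each) differed 1.93-fold, a log2 fold change of -0.95 ± 0.09 (SE; adjusted p by edgeR = 1.53e-04; 95% interval -1.14 to -0.76). The difference was -0.96 in the low and -1.04 in the high ribosomal RNA set. The macrophage list described below was lower in every clodrosome library, and its part in the falls of Itgax and Cd209a was not tested.

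The other shared markers of the conventional lineage were not called. Zbtb46 (chromosome 2, 181387762 to 181459426), a transcription factor found in conventional dendritic cells and their committed precursors and absent from most macrophages, stood at 5.99, 6.22 and 7.33 CPM in clodrosome A, B and C and at 5.62, 6.48 and 6.20 CPM in encapsome A, B and C. The libraries of the groups were interleaved. Its log2 fold change was 0.09 ± 0.14 (SE; adjusted p by edgeR = 0.692), and the 95% interval of -0.22 to 0.40 leaves out a fall of the size of Itgax. Without clodrosome C the value was -0.00425 on the log2 scale. The sign also differed between the ribosomal RNA sets, at 0.24 in the low and -0.028 in the high set.

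Flt3 (chromosome 5, 147330741 to 147400489) encodes the receptor for FLT3L that drives the growth of dendritic cell precursors and maintains the mature subsets. Its level was 11.1, 13.2 and 10.9 CPM in clodrosome A, B and C and 6.36, 10.3 and 10.6 CPM in encapsome A, B and C. The clodrosome libraries were all higher, but encapsome B and C lay just below them and encapsome A alone was low. The log2 fold change of 0.36 ± 0.19 (SE; adjusted p by edgeR = 0.206; 95% interval -0.06 to 0.79) did not pass, and it was 0.16 without encapsome A. With the ribosomal RNA set as a term it was 0.55 and passed (adjusted p by edgeR = 0.0185, the lowest over all alternatives, the highest being 0.746). The difference was 0.78 within the low set, which rests on encapsome A alone for its control, and 0.33 within the high set.

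Of the Langerhans cell markers, Cd207 (chromosome 6, 83671215 to 83677857) encodes langerin, the lectin that forms Birbeck granules, which some dermal type 1 dendritic cells carry too. Its level was 5.35, 7.27 and 5.70 CPM in clodrosome A, B and C and 9.14, 7.98 and 7.42 CPM in encapsome A, B and C. Clodrosome B nearly reached encapsome C, and the groups did not overlap. The log2 fold change was -0.43 ± 0.16 (SE; adjusted p by edgeR = 0.0774; 95% interval -0.79 to -0.08), which did not pass. It passed without clodrosome B, at -0.57 (adjusted p by edgeR = 0.0227), and with limma-voom, at -0.50 (adjusted p = 0.0416), over a range of adjusted p from 0.0227 to 0.220. The difference was -0.72 within the low and -0.08 within the high ribosomal RNA set.

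Epcam (chromosome 17, 87635979 to 87651129) encodes an adhesion molecule of Langerhans cells and of hair follicle and other epithelium. Its level was 153, 166 and 170 CPM in clodrosome A, B and C and 150, 134 and 146 CPM in encapsome A, B and C. Clodrosome A lay just above encapsome A, so the groups were separate by a narrow margin. A log2 fold change of 0.19 ± 0.08 (SE; adjusted p by edgeR = 0.115; 95% interval 0.01 to 0.36) did not pass, and the difference was 0.11 in the low and 0.25 in the high ribosomal RNA set. Of 7 keratinocyte genes 4 rose, with a summed level of 22875 to 23795 CPM with clodrosome and 15622 to 19568 CPM with encapsome and none at 0. That count was 2 without clodrosome C, encapsome B or encapsome C. Their part in the level of Epcam was not tested.

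None of the 3 type 1 markers passed the test, and their estimates differed in sign. Xcr1 (chromosome 9, 123852315 to 123862029), the receptor for the T and NK cell chemokine XCL1 and the most selective marker of the subset, stood at 1.03, 1.38 and 0.940 CPM in clodrosome A, B and C and at 1.68, 1.44 and 1.79 CPM in encapsome A, B and C. All clodrosome libraries were lower, clodrosome B by little. The log2 fold change of -0.56 ± 0.25 (SE; adjusted p by edgeR = 0.136; 95% interval -1.12 to -0.01) did not pass and was -0.75 within the low and -0.21 within the high ribosomal RNA set.

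Clec9a (chromosome 6, 129408862 to 129424763), a receptor for exposed actin filaments of dead cells, stood at 2.84, 3.35 and 3.54 CPM in clodrosome A, B and C and at 2.71, 2.97 and 2.51 CPM in encapsome A, B and C. Clodrosome A fell within the encapsome range. Its log2 fold change was 0.24 ± 0.18 (SE; adjusted p by edgeR = 0.389; 95% interval -0.17 to 0.64), with 0.22 in the low and 0.29 in the high ribosomal RNA set. Exons of Clec1b cover 5.59% of the exonic bases of Clec9a, and reads there were left out of its count.

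Cadm1 (chromosome 9, 47530173 to 47858115) encodes a cell adhesion molecule that type 1 dendritic cells carry and that mast cells, nerve and epithelium use as well. Its level was 39.8, 41.0 and 42.6 CPM in clodrosome A, B and C and 36.0, 32.0 and 39.1 CPM in encapsome A, B and C. Clodrosome A and encapsome C were close, and the groups did not overlap. A log2 fold change of 0.21 ± 0.09 (SE; adjusted p by edgeR = 0.126; 95% interval 0.01 to 0.40) did not pass, and it was 0.13 without encapsome B. The difference was 0.19 in the low and 0.21 in the high ribosomal RNA set. All 6 mast cell genes fell, with a summed level of 181 to 252 CPM with clodrosome against 378 to 451 CPM with encapsome, and their part in the level of Cadm1 was not tested.

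**Figure D2:**
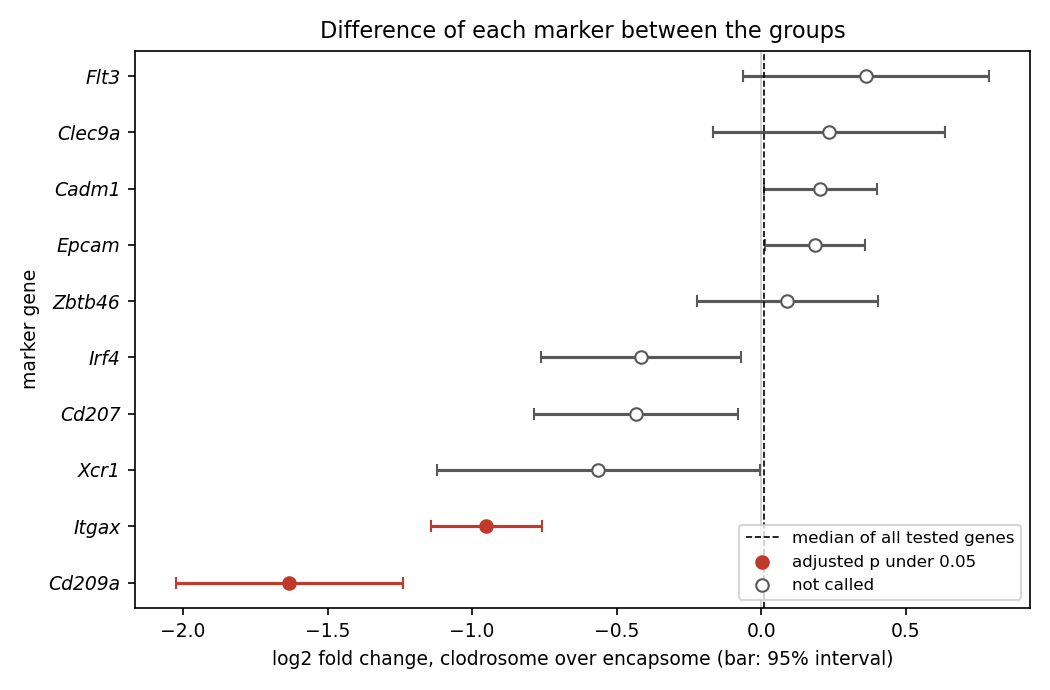
Log2 fold change of each marker (clodrosome over encapsome, circles) with its 95% interval, filled where the edgeR adjusted p was under 0.05, and the median of all tested genes as a dashed line. Cd209a at -1.63 and Itgax at -0.95 stand apart from the other markers, which lie between -0.56 and 0.36.

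Setting each marker against Adgre1 within the same library asks whether it moved with the main macrophage marker, whose own log2 change was -1.41 ± 0.18 (SE; adjusted p by edgeR = 8.58e-04). The log2 ratio of Cd209a to Adgre1 was -2.79, -2.25 and -2.50 in clodrosome A, B and C and -2.88, -1.80 and -2.39 in encapsome A, B and C. The groups were interleaved, with a difference of -0.16 (exact two-sided permutation p = 0.700), a value that was 0.48 with Mrc1 in place of Adgre1 and 0.12 without encapsome B. For Itgax the ratio was -2.41, -1.75 and -2.09 with clodrosome and -2.69, -2.39 and -2.66 with encapsome, a difference of 0.50 with a slight overlap (exact permutation p = 0.200, adjusted p = 0.222). That overlap depended on the reference and on a single library, since the Itgax difference was 1.13 with Mrc1 as reference and 0.66 without clodrosome A (exact permutation, adjusted p = 0.111 for each). The other 8 markers had a higher ratio in every clodrosome library than in any encapsome library, by 0.90 for Xcr1 up to 1.84 for Flt3 on the log2 scale. Without clodrosome B the difference was 0.52 for Xcr1 and 0.67 for Cd207 in place of 1.02, and with Mrc1 as reference it was 1.54 for Xcr1 and 1.66 for Cd207. Each of these 8 ratios to Adgre1 had, with all libraries, an exact permutation p of 0.1, the smallest that 3 libraries against 3 allow. Their adjusted p was 0.125 over the 10 ratios. Only 1.99% of tested genes fell as far as Adgre1 or further, so the ratio to it is higher with clodrosome for nearly any gene. The share of all tested genes whose ratios separate in this way was not computed, so whether the count of 8 is particular to these markers was not tested.

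**Figure D3:**
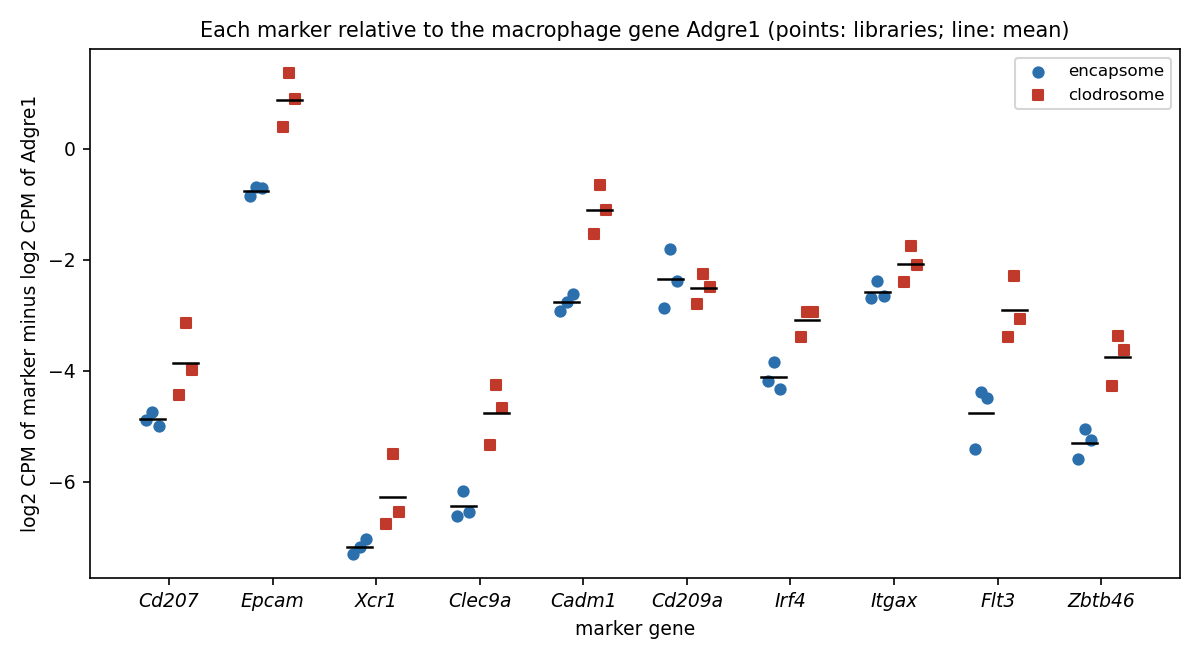
Log2 CPM of each marker minus log2 CPM of Adgre1 in every library (blue circles encapsome, red squares clodrosome; lines are means). The groups separate for 8 markers and overlap for Cd209a and Itgax with Adgre1 as reference and all 6 libraries. Adgre1 itself changed by -1.41 on the log2 scale, so nearly any gene has a higher ratio with clodrosome.

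Ratios between members, for 6 pairs chosen by role after the values were seen, show how the markers changed against each other. Zbtb46 relative to Itgax was 1.04 higher on the log2 scale with clodrosome, at -1.86, -1.62 and -1.55 in clodrosome A, B and C against -2.89, -2.66 and -2.60 in encapsome A, B and C. Irf4 relative to Cd209a was 1.18 higher and Clec9a relative to Xcr1 was 0.79 higher. The difference for Cd207 relative to Epcam was -0.61, with a mean of -4.74 ± 0.20 with clodrosome and -4.13 ± 0.14 with encapsome (SD, n = 3 each). None of the libraries overlapped for these 4 pairs, each at the smallest possible exact permutation p of 0.1 (adjusted p = 0.150 over 6 pairs). That adjustment covers only the 6 chosen pairs and does not account for choosing them after the values were seen. Zbtb46 to Flt3 (-0.30, exact permutation p = 0.300) and Clec9a to Cadm1 (0.03, exact permutation p = 1) overlapped between the groups. The former was -0.12 without encapsome A and -0.19 without clodrosome B.

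Levels of different genes can be set side by side only per length, here as CPM per kilobase of exon. In encapsome skin the order was Epcam at 65.3 ± 3.76, Cd209a at 30.4 ± 8.04, Itgax at 8.40 ± 0.47, Cd207 at 5.37 ± 0.57, Cadm1 at 3.02 ± 0.30, Irf4 at 2.84 ± 0.37, Flt3 at 1.47 ± 0.39, Clec9a at 0.830 ± 0.070, Zbtb46 at 0.717 ± 0.052 and Xcr1 at 0.367 ± 0.040 CPM per kilobase (SD, n = 3 each). Only Cadm1 and Irf4 overlapped as neighbours. Clodrosome skin had the same order, from Epcam at 74.3 ± 3.94 to Xcr1 at 0.251 ± 0.052 CPM per kilobase (SD, n = 3 each). There Itgax at 4.34 ± 0.30, Cd207 at 4.01 ± 0.67 and Cadm1 at 3.49 ± 0.12 CPM per kilobase (SD, n = 3 each) overlapped in turn, as did Irf4 and Flt3.

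Further genes of the subsets came from lists of known markers, made with earlier results of these data known. Some of these genes are also expressed by macrophages, whose part in their values was not tested. Of 10 type 2 genes 5 fell and 0 rose, with a median log2 fold change of -0.56. Sirpa, an inhibitory receptor of myeloid cells, changed by -1.18 ± 0.09 (SE; adjusted p by edgeR = 8.51e-05), the lectin gene Clec12a by -1.04 and the galactose-binding lectin genes Mgl2 and Clec10a by -0.89 and -1.45. The last pair are close copies of each other, so the split of reads between them is uncertain. Of 11 type 1 genes 4 fell and 0 rose, with a median of -0.65. Wdfy4, needed for cross-presentation, changed by -1.07 ± 0.08 (SE; adjusted p by edgeR = 8.97e-05), Irf8, the factor that specifies the subset and is also active in monocytes and macrophages, by -0.90, and the lysosomal amidase gene Naaa by -1.38. Ifi205, of a family of near-identical genes, changed by -0.67, a call lost without clodrosome C or encapsome B. Batf3, the partner factor of the type 1 subset, picked out after its value was seen, was at 2.71 ± 0.57 CPM with clodrosome and 2.86 ± 0.42 CPM with encapsome (SD, n = 3 each; adjusted p by edgeR = 0.798).

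Among 13 genes of Langerhans cell maintenance 6 fell and 2 rose, with a median of -0.04, and 3 fell without clodrosome C. Tgfb1, the cytokine that holds Langerhans cells in the epidermis, changed by -1.0 ± 0.10 (SE; adjusted p by edgeR = 1.92e-04), its receptor gene Tgfbr1 by -0.46 and the factor gene Runx3 by -0.78. Itgb8, part of the keratinocyte integrin that activates TGF-beta, rose by 0.55 ± 0.08 (SE; adjusted p by edgeR = 0.00113). Il34, the keratinocyte cytokine that sustains Langerhans cells, picked out after its value was seen, was at 7.99 ± 0.92 CPM with clodrosome and 6.84 ± 0.76 CPM with encapsome (SD, n = 3 each; adjusted p by edgeR = 0.287).

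Of 22 genes of the dendritic core, 21 were tested, 5 fell and 4 rose, with a median of 0.03. The count that fell was 3 without encapsome B and the count that rose was 2 without encapsome A. Slamf7, a receptor of several leukocytes, changed by -1.74 ± 0.23 (SE; adjusted p by edgeR = 8.50e-04), Csf2ra, a chain of the GM-CSF receptor, by -0.67 and the kynurenine enzyme gene Kmo by -0.81. Bcl11a, a factor of dendritic and lymphoid precursors, rose by 0.50 (adjusted p by edgeR = 0.00900). Flt3l, the ligand of Flt3, picked out after its value was seen, was at 3.46 ± 0.44 CPM with clodrosome and 3.12 ± 0.33 CPM with encapsome (SD, n = 3 each; adjusted p by edgeR = 0.553).

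The migratory and plasmacytoid lists held genes that rose and none that fell with all libraries in the fit, and both counts moved when single libraries were left out. Of 7 tested migratory genes 3 rose, with a median of 0.30, and 1 rose with limma-voom and without clodrosome C, encapsome A, encapsome B or encapsome C. The homing receptor gene Ccr7 rose by 1.07 ± 0.15 (SE; adjusted p by edgeR = 0.00135). Of 6 plasmacytoid genes 3 rose, with a median of 0.69, and 1 rose without clodrosome B, clodrosome C or encapsome B. Without clodrosome B, Bst2, an interferon-induced membrane protein gene named after its value was seen, was called lower at -0.22 (adjusted p by edgeR = 0.0456). Siglech, the lectin of plasmacytoid dendritic cells, was at 9.36 ± 2.53 CPM with clodrosome and 3.82 ± 1.78 CPM with encapsome (SD, n = 3 each; a log2 difference of 1.29; adjusted p by edgeR = 0.0239, lost without clodrosome B at 0.0575). Cox6a2, known best as a muscle subunit of cytochrome oxidase, was called too, but not without clodrosome C or encapsome B.

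Of genes that mark other cells, all 10 macrophage genes fell, with a median of -1.89 and a summed level of 1786 to 2836 CPM with clodrosome against 6748 to 7473 CPM with encapsome. Of 6 monocyte genes 2 fell, with a median of -0.22 and sums of 702 to 851 against 1160 to 1339 CPM. F13a1 was at 164 ± 68 CPM with clodrosome and 524 ± 92 CPM with encapsome (SD, n = 3 each). Ccr2, the other that fell, was at 143 ± 25 and 246 ± 44 CPM (SD, n = 3 each). Chil3, at 0.53, was called higher only with the ribosomal RNA set as a term or with genes of low count kept. Ly6c2, at 0.37 and named after its value was seen, was called higher in the same settings (adjusted p by edgeR = 0.0448 and 0.0116). Vcan, at -0.32, was called lower with genes of low count kept and without clodrosome A. With the number in the column names as a term of the fit, 4 monocyte genes were called lower. For the cells that share Irf4, T cell genes summed to 23.6 to 31.2 CPM with clodrosome and 30.5 to 37.6 CPM with encapsome, B and plasma cell genes (2 of 6 tested) to 3.30 to 4.34 and 2.97 to 5.20 CPM, and melanocyte genes to 59.2 to 69 and 57.7 to 60.8 CPM. These sums overlapped between the groups but follow the abundant genes of each list, and each list held 1 called gene. The T cell list had a median of 0.30. Its costimulator gene Cd28 was lower by -1.02 (adjusted p by edgeR = 0.0237), a call lost without clodrosome A, clodrosome C, encapsome A or encapsome C. Cd4 at -0.67 was lower, and Cd3d at 0.61 and Trac at 0.52 were higher, none of them called in the main edgeR fit. Cd4 was called lower with DESeq2, with genes of low count kept, with the ribosomal RNA set as a term and without encapsome C. Cd3d was called higher with genes of low count kept and Trac with the ribosomal RNA set as a term. The libraries of the groups did not overlap for Cd3d and Trac. Cd79b, part of the B cell receptor, was lower by -1.43 (adjusted p by edgeR = 0.0144), lost without encapsome A or encapsome B. The pigment enzyme gene Tyrp1 was higher by 0.68 (adjusted p by edgeR = 0.0164). This call was lost without clodrosome C, encapsome A or encapsome C, and with the column number as a term of the fit. For nerve, which shares Cadm1, Schwann cell genes summed to 92.2 to 134 and 86.2 to 102 CPM, and neutrophil genes to 1407 to 1975 and 1009 to 1623 CPM, with overlap. Of these the Schwann cell gene Cdh19 was higher by 0.69 (adjusted p by edgeR = 0.0149). That call was lost without clodrosome C and with the column number as a term of the fit. The neutrophil gene Retnlg was 4.20-fold higher (adjusted p by edgeR = 3.66e-04) with no overlap. It was the only 1 of 6 neutrophil genes called, and the median of that list was 0.11. S100a8 and S100a9, each at 0.43, and Mmp8 at -0.32 were not called in the main edgeR fit. S100a8 and S100a9 were called higher with DESeq2 (adjusted p by DESeq2 = 0.0269 and 0.0320). Both were also called higher with genes of low count kept and with the ribosomal RNA set as a term, and S100a8 without encapsome B. Mmp8 was called lower with genes of low count kept and without encapsome A. With the number in the column names as a term of the fit, 3 neutrophil genes were called lower. No gene of these lists was at 0 in all libraries, and their part in the members' values was not tested.

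**Figure D4:**
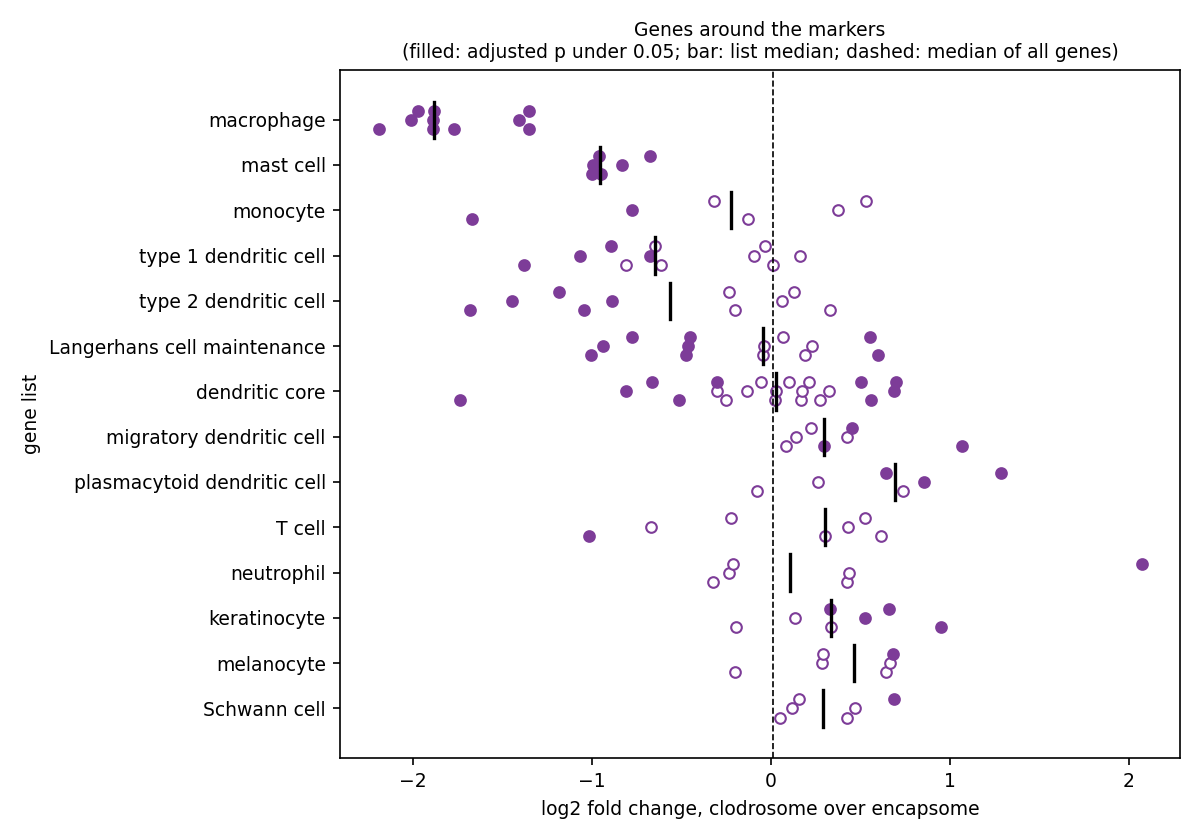
Log2 fold changes (clodrosome over encapsome) of the tested genes of each list with more than 2 of them, filled where the edgeR adjusted p was under 0.05, with the list median as a bar and the median of all tested genes as a dashed line. Macrophage and mast cell genes are all lower, filled points of the type 1 and type 2 lists lie below 0, those of the migratory and plasmacytoid lists above it, and those of the core and Langerhans lists on both sides.

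The genes most like Cd207 over the 6 libraries, by Pearson r of log2 CPM among 12218 genes whose mean CPM reached 5, were Cby1 (r = 0.994), Mlec (r = 0.983) and Acbd5 (r = 0.983). Those most like Cd209a were Olfm1 (r = 0.998), Zswim6 (r = 0.997) and Dok2 (r = 0.996). With 6 points that share the split into groups such values are common, since 534 genes had an r over 0.95 with Cd209a and 64 with Cd207.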

How the data were processed

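The deposited values are raw counts, 1 per gene and library. Per the file headers, the authors ran featureCounts 1.6.2 with GRCm38 gene models of Ensembl release 102. Trimmomatic 0.36, HISAT2 2.2.1, StringTie 2.2.1 and DESeq2 1.34.0 are named in the submitters' processing notes. The header's command sets no option for pairs, strand or multiple mapping, so each read end appears to be counted by itself (63.6% to 69.7% of counts from 1 to 20 were even) and strand is ignored. Columns were assigned to groups by name only, and 0 other columns of sample values were present. Symbols came from a supplied table of identifiers and names (99.4% of identifiers). All genes were tested together with the edgeR 4.0.16 quasi-likelihood test in R 4.3.3 (TMM scaling, filterByExpr with a minimum count of 10 and total of 15, group as the only term, Benjamini-Hochberg adjustment, threshold 0.05). Standard errors were derived from the fold change and its F statistic, and 95% intervals use the test's degrees of freedom and are not adjusted. Log2 CPM for ratios used a prior count of 2. The procedure was tested on simulated data. Alternatives were DESeq2 1.42.0, limma 3.58.1 with voom, other scalings and filters, thinning clodrosome A to 31569927 counts, the ribosomal RNA set or the column number as a term, and leaving out each library. Intervals and p-values cover the spread of libraries only. Named genes are the 10 members, Adgre1, up to 4 genes of each list with the smallest p and the 3 genes most like Cd207 and Cd209a, and others are said to be picked out after their values were seen. The members and lists were chosen with earlier results of these data known. In the lists, some genes are also expressed by macrophages. The lists were of type 1, type 2, core, migratory and plasmacytoid dendritic cells, Langerhans cell maintenance, macrophages, monocytes, neutrophils, T cells, B and plasma cells, mast cells, keratinocytes, melanocytes and Schwann cells.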

Additional observations from a re-analysis of the deposited data

How the results depend on the processing

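Cd209a and Itgax stayed called lower under all 15 alternatives, from -1.79 to -1.41 for Cd209a and from -1.0 to -0.87 for Itgax. The number of members called lower was 2 or 3 throughout, and without each library in turn 2 to 3. The number called higher was 0 in each case except with the ribosomal RNA set as a term, where it was 1 (Flt3). Leaving out each library gave 2477 to 4396 called genes in all, against 4035 with all libraries, the lowest being without encapsome B and 2642 without clodrosome C. The cause was not tested. Signs turned for 4 of the values followed. Leaving out each library gave Zbtb46 from -0.00425 (without clodrosome C) to 0.15, Cd209a to Adgre1 from -0.42 to 0.12 (without encapsome B), Clec9a to Cadm1 from -0.094 (without encapsome C; also below 0 without clodrosome C) to 0.17, and Batf3 from -0.25 to 0.069 (without clodrosome A; also above 0 without encapsome C). Cd209a to Adgre1 was 0.48 with Mrc1 as reference. The columns carry no replicate numbers of the titles, so the planned block on those was not run. The numbers in the column names occur in both groups for 2 pairs of libraries, and no label says that they pair them. Deviations from the group means correlated at -0.036 and -0.046 across genes in those pairs. A replicate block on the column numbers, added after seeing the data and with 1 residual degree of freedom, gave 4293 called genes, 2 members lower and 0 higher, with Cd209a at -1.71, Itgax at -0.87, Irf4 at -0.23 and Flt3 at 0.069. Markers near 1 CPM, such as Xcr1, are limited by depth.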
